A study of Mus musculus with 6 samples.

Results

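The inhibitors of cyclin-dependent kinases in the embryonic mouse heart were examined, with Cdkn1c, which encodes p57, set against its relatives. The CIP/KIP family comprises Cdkn1a (p21), Cdkn1b (p27) and Cdkn1c, and the INK4 family comprises Cdkn2a (p16 and the unrelated p19Arf), Cdkn2b (p15), Cdkn2c (p18) and Cdkn2d (p19). A gene entered when a transcript cluster of the array was annotated to it alone, and where a gene had several clusters the one with the highest mean over the 6 arrays stood for it. By this rule 6 of the 7 genes were measured, out of 19933 genes in all, namely 2 of CIP/KIP and all 4 of INK4. Cdkn1a was not measured under the rule, as its cluster is also annotated to another gene.

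The series compared hearts labelled wild type with hearts labelled knockout for β1 integrin, the product of Itgb1, at E12.5, an embryonic day of mid-gestation, with 3 biological replicates of each on Affymetrix Mouse Gene 1.0 ST arrays. The question, per the design text, was which transcripts differ before the mutant heart shows obvious dysfunction. The labels give no strain, no Cre driver and no cell type of deletion for either group, and they do not say whether a sample was a single heart or a pool. A sample is called a heart here, and the p-values rest on the spread among such samples alone. Each value is a log2 signal, and a difference is knockout minus wild type, so that 1 unit is a doubling. Values of single hearts are given in the order of replicates 1 to 3. The whole heart was measured, so fewer cells of a type and less RNA per cell cannot be told apart.

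Cyclin-dependent kinases drive the cell through its division cycle when a cyclin is bound to them. INK4 proteins bind Cdk4 and Cdk6 and keep D-type cyclins off them, while CIP/KIP proteins bind assembled complexes of cyclin and kinase, including those of Cdk2, so that the retinoblastoma proteins remain unphosphorylated and E2F factors stay silent. p57 is the member most tied to embryonic development. Its gene is imprinted and read mainly from the maternal copy, and in the ventricle of this stage p57 marks trabecular muscle cells, whose division slows before that of the compact wall. Loss of the trabecular ligand Bmp10 is known to raise p57 there.

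Cdkn2a needs its sequence beside its value, since a single cluster stands for both of its products. The gene has separate first exons for Arf, upstream, and for p16, nearer to the shared exons, and the cluster lists 2 RefSeq transcripts of the gene, so that the signal cannot be divided between them. RefSeq (GRCm38.p6, minus strand) gives 2 starts, and the 250 bases before each follow, from chr4:89294620-89294869 for the upstream and chr4:89282193-89282442 for the downstream start. Capitals mark GGGCGG, the GC box, searched on both strands (CCGCCC on the other).
upstream start of Cdkn2a: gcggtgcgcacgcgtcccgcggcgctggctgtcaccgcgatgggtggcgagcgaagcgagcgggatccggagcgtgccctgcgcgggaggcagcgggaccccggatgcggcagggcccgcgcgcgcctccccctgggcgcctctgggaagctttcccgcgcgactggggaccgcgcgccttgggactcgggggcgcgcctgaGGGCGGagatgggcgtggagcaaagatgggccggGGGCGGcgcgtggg
downstream start of Cdkn2a: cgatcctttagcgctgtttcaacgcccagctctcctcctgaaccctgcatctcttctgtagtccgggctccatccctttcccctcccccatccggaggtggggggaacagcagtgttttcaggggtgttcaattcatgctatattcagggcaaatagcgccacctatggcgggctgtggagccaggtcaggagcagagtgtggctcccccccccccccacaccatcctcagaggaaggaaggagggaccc
The upstream window holds 2 GC boxes and 40 CpG dinucleotides, and the downstream window holds 0 and 7. Of 32851 RefSeq promoter windows of this length 32.7% hold the motif. The match describes letters and bears on neither the factor nor the signal.

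The differences lay within 0.3 log2 units for all 6 measured inhibitors, and none passed limma's test. Cdkn1c had the largest measured difference, at 83.7% of its wild-type signal in the knockout, and was the only measured inhibitor whose groups did not overlap. It was also the brightest, at percentile 98.7 of all clusters. Cdkn1b and Cdkn2d stood at 85.5 and 80.9, and Cdkn2a, Cdkn2b and Cdkn2c at 44.1, 52.1 and 54.7. RMA compresses differences of dim clusters, and the part of brightness in this order was not tested. Of the 6 genes 3 had a lower and 3 a higher mean in the knockout, with a median difference of -0.03, against -0.01 over all clusters. With Benjamini-Hochberg adjustment over the 28767 clusters, 0 of 6 inhibitors passed a threshold of 0.05 in limma, as did 0.00% of all clusters. At an unadjusted p under 0.05 there was 1 of 6, Cdkn1c, against 5.93% of all clusters (1705). Of all clusters 2.87% had such a p with a lower mean, as Cdkn1c did, and 3.06% with a higher mean. Without overlap between groups there was likewise 1 of 6, against 12.6% of all clusters. 1 gene of 6 is too few to set the family apart from the array as a whole.

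**Figure D1:**
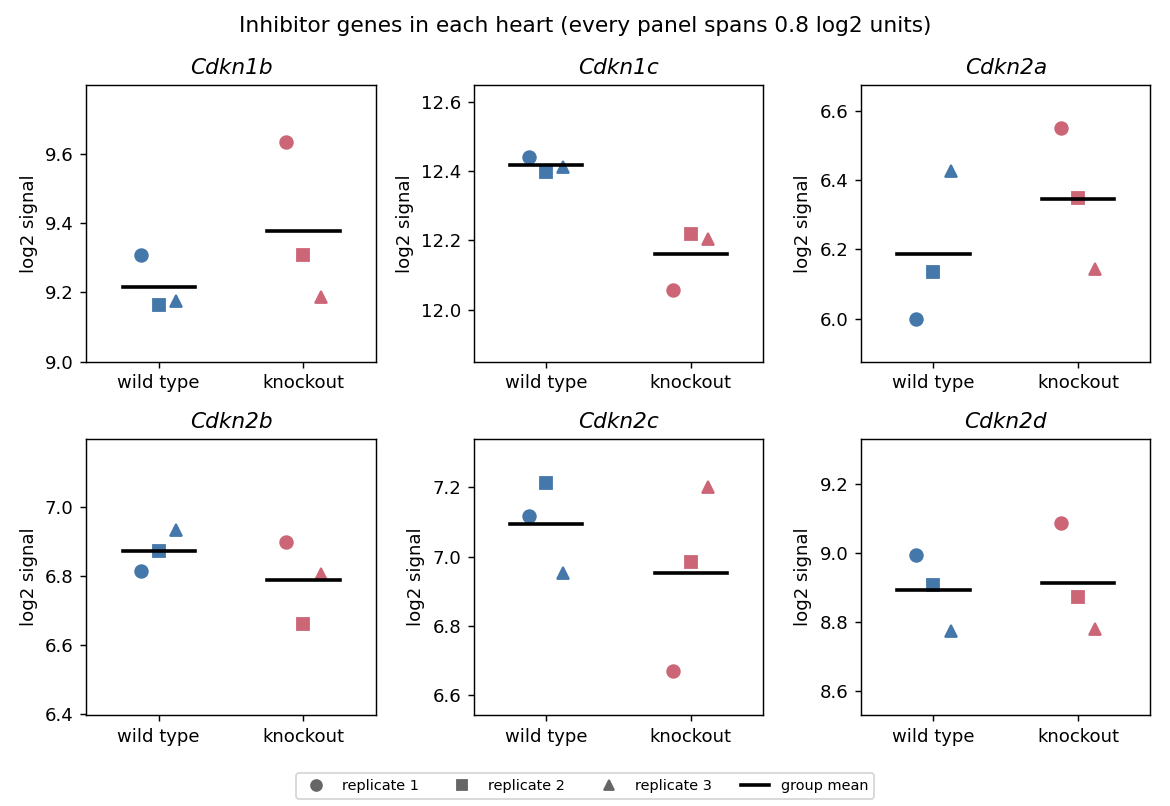
Log2 signal (vertical axis) of each measured inhibitor in the 3 wild-type (blue) and 3 knockout (red) hearts, with symbols for replicates and bars for group means; every panel spans the same range of log2 units. For Cdkn1c the knockout hearts lie between 12.06 and 12.22, below the wild-type hearts at 12.40 to 12.44, while the groups overlap for the other 5 genes.

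Cdkn1c was 12.44, 12.40 and 12.41 in the wild-type replicates, numbered 1 to 3, against 12.06, 12.22 and 12.20 in those of the knockout. The wild-type hearts were close together and each knockout heart lay below all of them, with replicate 1 the lowest. The means were 12.42 ± 0.02 (SD, n = 3) and 12.16 ± 0.09 (SD, n = 3). The difference was -0.26 ± 0.08 (SE), with a 95% interval from -0.45 to -0.06 for this gene taken alone. Its adjusted p in limma was 0.797, and its unadjusted p of 0.0166 was undercut by 529 clusters, or 1.84% of those tested. A two-sided exact permutation test gave p = 0.1, below which a design of 3 and 3 cannot go. Against the wild-type mean the knockout hearts stood at -0.36, -0.20 and -0.21, and the difference lay between -0.29 and -0.21 whichever heart was left out.

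The other measured CIP/KIP gene, Cdkn1b, encodes p27, an inhibitor of Cdk2 complexes that accumulates as cells leave the cycle. Its signal was 9.31, 9.16 and 9.17 in the wild-type replicates against 9.64, 9.31 and 9.19 in those of the knockout. Knockout replicate 1 stood above the rest, and the other knockout hearts lay within or at the edge of the wild-type range. The difference was 0.16 ± 0.13 (SE; limma, adjusted p = 0.827), with an interval from -0.13 to 0.46. Without knockout replicate 1 it was 0.03.

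Cdkn2a, whose products restrain Cdk4 and Cdk6 (p16) and stabilise p53 (Arf), was dim, below the median of all clusters. RMA compresses differences of dim clusters. Its signal was 6.0, 6.13 and 6.43 in the wild-type replicates against 6.55, 6.35 and 6.14 in those of the knockout, and the groups overlapped. The difference of 0.16 ± 0.15 (SE; limma, adjusted p = 0.848) became 0.06 when knockout replicate 1 was left out, 0.07 without wild-type replicate 1 and 0.28 without its replicate 3. Cdkn2b, its neighbour on chromosome 4 and a known target of TGF-β, was 6.81, 6.87 and 6.93 in the wild-type replicates against 6.90, 6.66 and 6.80 in those of the knockout. Knockout replicate 1 lay inside the wild-type range and the other knockout hearts below it. The difference was -0.08 ± 0.09 (SE; limma, adjusted p = 0.873), with -0.14 without knockout replicate 1 and -0.02 without knockout replicate 2.

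Cdkn2c encodes p18, an INK4 protein of dividing and differentiating embryonic tissue. Its signal was 7.12, 7.21 and 6.95 in the wild-type replicates against 6.67, 6.98 and 7.20 in those of the knockout, so that knockout replicate 1 was the lowest and knockout replicate 3 lay among the higher wild-type hearts. The difference was -0.14 ± 0.15 (SE; limma, adjusted p = 0.865), with -0.08 when wild-type replicate 2 was left out, -0.21 for its replicate 3 and -0.27 for knockout replicate 3. Without knockout replicate 1 nothing of it was left at 2 decimals. Cdkn2d, the INK4 gene of p19, was 8.99, 8.91 and 8.78 in the wild-type replicates against 9.09, 8.87 and 8.78 in those of the knockout, and both groups covered much the same range. The difference of 0.02 ± 0.11 (SE; limma, adjusted p = 0.975) turned to -0.07 without knockout replicate 1, to -0.04 without wild-type replicate 3 and to -0.03 with weighted arrays. The intervals of the INK4 genes ran from -0.48 at the lowest (Cdkn2c) to 0.50 at the highest (Cdkn2a), and each of the 4 held, in at least 1 direction, a difference as large as that of Cdkn1c.

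Cdkn1c was then set against each relative within the same heart, by taking its log2 signal minus that of the relative, which cancels what an array shares. Only the change of this within-heart value between groups is read, since signals of different probes have no common scale. Sizes of change are not fully comparable either, as RMA compresses those of dim clusters such as Cdkn2a. Against Cdkn1b the value was 3.14, 3.24 and 3.24 in the wild-type replicates against 2.42, 2.91 and 3.02 in those of the knockout, a change of -0.42 without overlap. Against Cdkn2d it was 3.45, 3.49 and 3.64 in the wild-type replicates against 2.97, 3.35 and 3.42 in those of the knockout, a change of -0.28 without overlap. Two-sided exact permutation tests gave p = 0.1 for both, the lower limit of this design. Both changes rested in part on knockout replicate 1, without which they were -0.24 and -0.14.

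The groups overlapped against the other 3 relatives. The change was -0.42 against Cdkn2a (exact permutation p = 0.2), -0.17 against Cdkn2b (exact permutation p = 0.3) and -0.12 against Cdkn2c (exact permutation p = 0.5). Without knockout replicate 1 these were -0.26, -0.07 and -0.20. The sign was negative for all 5 relatives whichever heart was left out, and its smallest size was -0.01, against Cdkn2c without knockout replicate 3. The 5 comparisons share the values of Cdkn1c. The permutation test cannot reach 0.05 with 3 hearts in each group, so it does not settle whether Cdkn1c differs from a relative.

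**Figure D2:**
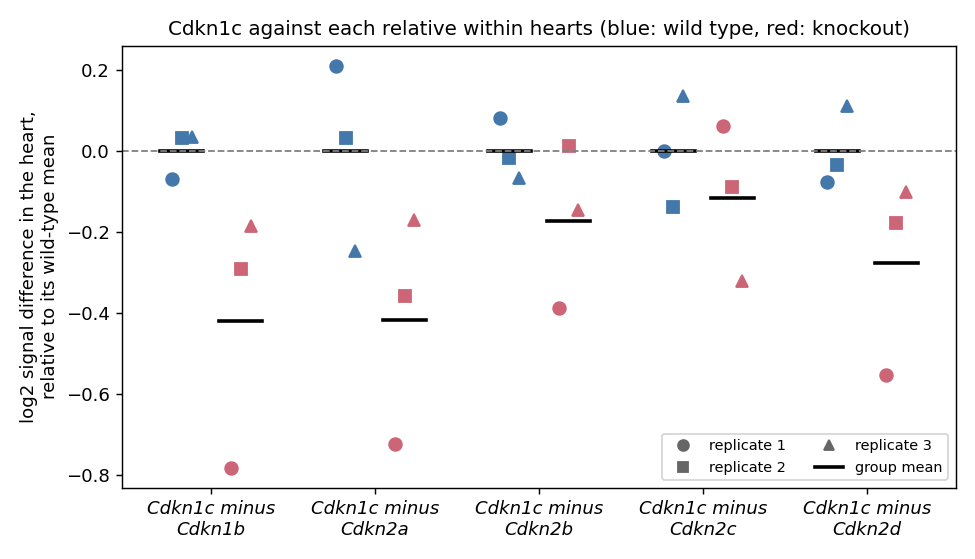
Within-heart difference in log2 signal between Cdkn1c and each relative, drawn relative to its wild-type mean, for 3 wild-type (blue) and 3 knockout (red) hearts, with bars for group means. The knockout hearts lie below the wild-type hearts for Cdkn1b and Cdkn2d, by means of -0.42 and -0.28, and overlap with them for Cdkn2a, Cdkn2b and Cdkn2c.

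The targeted gene and the makeup of the hearts were measured the same way. Itgb1 was at 84.0% of its wild-type signal in the knockout, a difference of -0.25 ± 0.09 (SE; limma, adjusted p = 0.797), and whether its probes reach the deleted part is not known, so that it is no check of the labels. Array medians lay between 6.65 and 6.70 over all clusters. Cardiomyocyte markers, of which 12 of 12 were measured, had list means of 12.46 or more in wild-type and of 12.34 to 12.45 in knockout hearts. Genes induced by low oxygen had 16 of 16 higher means in the knockout, and 12 lay above every wild-type heart, against 6.01% of all clusters. Their median difference was 0.71, and 0.26 without knockout replicate 1, with 15 of 16 still higher. That replicate stood apart in them, with a list mean of 10.53. The other knockout hearts had 9.20 and 9.02, and wild type 8.78 to 8.82. Knockout replicate 1 also stood apart in erythroid markers (10 genes), at 1.09 relative to the mean of the wild-type hearts, where the other knockout hearts stood at -0.07 and -0.06. The same held for megakaryocyte markers (8 genes, 8.81 against 6.82 to 7.18). Liver markers (9 genes) ranged from 5.77 to 5.95 in wild-type and 6.08 to 6.45 in knockout hearts, and macrophage markers (12 genes) from 6.85 to 6.99 and 7.01 to 7.22. Endothelial markers (10 genes) ranged from 9.84 to 9.93 and 9.79 to 9.80. Epicardial markers (9 genes) covered 8.62 to 8.64 in wild-type and 8.60 to 8.77 in knockout hearts, cushion markers (10 genes) 8.21 to 8.95 and 8.53 to 8.94, smooth muscle markers (8 genes) 8.31 to 8.68 and 8.54 to 9.07, and neural markers (6 genes) 6.13 to 6.29 and 6.08 to 6.31. The part of these in the values of the inhibitors was not tested. The difference of Cdkn1c was -0.21 without knockout replicate 1, which is no such test. The other knockout hearts also stood outside the wild-type range in the list means for low oxygen, liver and macrophages.

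The partners of the inhibitors, the kinases and cyclins they bind, had lower means in the knockout for 9 of 10 genes, with a median difference of -0.12 against -0.01 over all clusters. Of all clusters 53.5% had a lower mean. 3 of 10, the cyclin E gene Ccne1, the D-type cyclin gene Ccnd3 and the mitotic kinase gene Cdk1, lay below every wild-type heart, against 6.61% of all clusters, and 0 of 10 passed limma's test. Ccne1, which activates Cdk2 at the entry into DNA synthesis, was 9.07, 9.08 and 8.92 in the wild-type replicates against 8.43, 8.72 and 8.87 in those of the knockout. Each knockout heart lay below the wild-type range, replicate 1 by most. The difference was -0.35 ± 0.12 (SE; limma, adjusted p = 0.797), and -0.23 without knockout replicate 1.

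Among the partners of INK4 proteins, the kinase genes Cdk4 and Cdk6 had opposite signs. Cdk6 was 9.55, 9.42 and 9.52 in the wild-type replicates against 9.44, 9.66 and 9.74 in those of the knockout, a difference of 0.12 ± 0.10 (SE). Cdk4 stood at -0.11 ± 0.11 (SE), of which -0.01 was left without knockout replicate 1. The groups overlapped for both kinases. The D-type cyclin genes differed by -0.25 (Ccnd1), -0.10 (Ccnd2) and -0.14 (Ccnd3), and without knockout replicate 1 by -0.12, -0.06 and -0.14. Cdk1 differed by -0.13, Cdk2 by -0.11, Ccne2 by -0.18 and Ccna2 by -0.03. Without knockout replicate 1 the median of the 10 genes was -0.05.

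**Figure D3:**
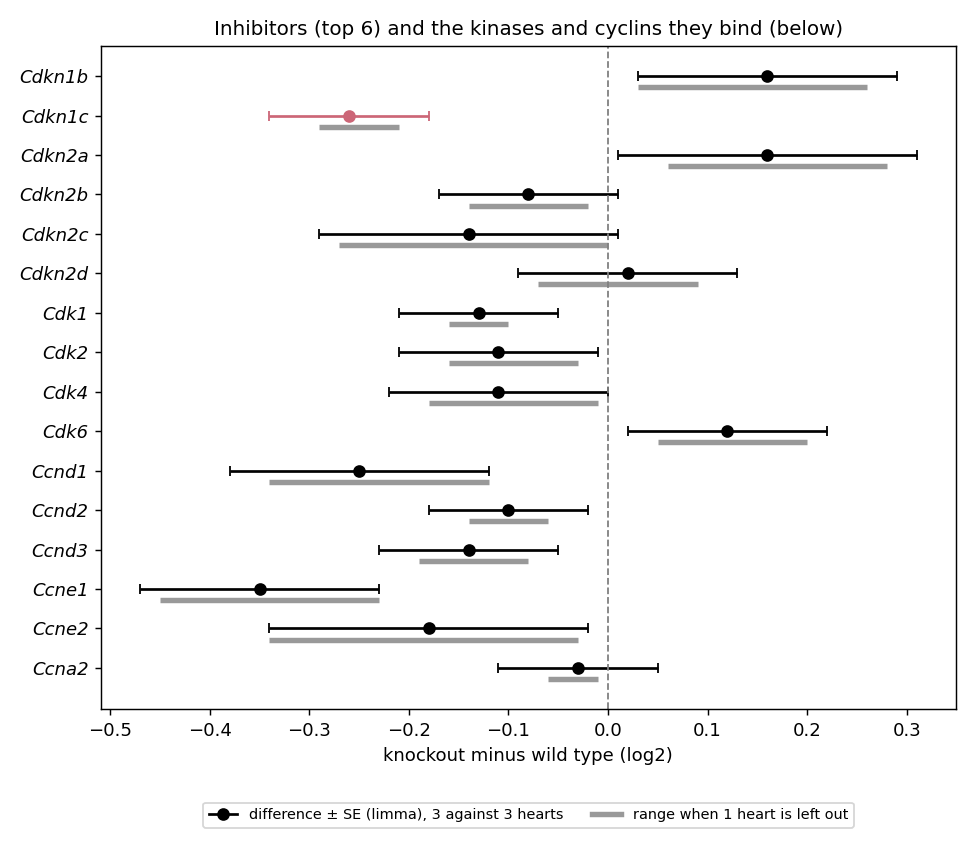
Knockout minus wild-type difference in log2 signal (horizontal axis) for the 6 measured inhibitors and 10 kinases and cyclins, with limma's SE, and in grey the range when 1 heart is left out. Cdkn1c (red) stays between -0.29 and -0.21 and Ccne1 between -0.45 and -0.23, while the grey range of Cdkn2d crosses 0.

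Downstream of these kinases stand the retinoblastoma family and the E2F factors. Of 13 genes 10 had lower and 3 higher means in the knockout. 0 of 13 were without overlap between groups, against 12.6% of all clusters. The median of the 13 genes was -0.09. Their lowest p belonged to E2f2 (-0.21 ± 0.11, SE), then Rbl2 (0.23 ± 0.13), the gene of the pocket protein p130, and Tfdp1 (-0.23 ± 0.15), the partner of E2F proteins. Without knockout replicate 1 they stood at -0.28, 0.15 and -0.05. Rb1, the retinoblastoma gene itself, was at 0.11 ± 0.13.

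Genes of dividing cells are a readout on the far side of the inhibitors. Of 19 measured genes 15 had a lower mean, against 53.5% of all clusters, and the median difference was -0.13. 5 of 19 lay below every wild-type heart, against 6.61% of all clusters, and 0 above. Mcm7, of the replicative helicase, stood at -0.25 ± 0.10 (SE), Foxm1, a transcription factor of mitotic genes, at -0.20 ± 0.09 and Mcm5 at -0.24 ± 0.12. The proliferation markers Mki67 (0.04 ± 0.10) and Top2a (0.08 ± 0.08) did not share that sign. Without knockout replicate 1, whose list mean was 9.61 against 9.79 to 9.88 in the other hearts, the median was -0.06. In limma 0 of the 19 passed.

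Genes that act on the inhibitors were examined by the step they control. Genes that act on CIP/KIP proteins, mostly parts of the ubiquitin ligases that mark them for breakdown and the kinase gene Uhmk1, had 9 of 12 lower means, with a median of -0.10 and, without knockout replicate 1, of -0.04. Skp1, a core part of that ligase, had the lowest p at -0.27 ± 0.11 (SE) and lay below every wild-type heart, as did Rnf123 (-0.13 ± 0.08), a ligase of p27, and Rbx1 (-0.11), that is 3 of 12 against 6.61% of all clusters. Ddb1, which serves another ligase of p21, lay above every wild-type heart at 0.08, 1 of 12 against 6.01% of all clusters. The receptor that recognises p27, Skp2, stood at -0.11 ± 0.14 and turned to 0.03 without knockout replicate 1. Breakdown acts on the protein, which was not measured here.

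Transcription factors and ligands known to act on CIP/KIP genes had 19 of 25 higher means in the knockout, with a median of 0.10, and 0.09 without knockout replicate 1. Of all clusters 46.5% had a higher mean. 4 of the 25 lay above every wild-type heart, against 6.01% of all clusters, and 0 passed limma's test. Hey1, a Notch-induced repressor, was 7.25, 7.20 and 7.27 in the wild-type replicates against 7.66, 7.40 and 7.56 in those of the knockout. No knockout heart reached down to the wild-type range, and the difference was 0.30 ± 0.09 (SE; limma, adjusted p = 0.797). Tgfb3, a TGF-β ligand, stood at 0.43 ± 0.15 and Sp1, which binds GC boxes, at 0.20 ± 0.09, while the Id factor gene Id3 stood at -0.19 ± 0.28.

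Bmp10, the ligand named above, was 9.95, 9.93 and 9.70 in the wild-type replicates against 10.83, 9.85 and 9.73 in those of the knockout. Knockout replicate 1 alone was high, and the difference of 0.28 ± 0.27 (SE) became -0.06 without it. Genes of trabecular muscle, in which p57 is found, had 6 of 10 lower means and a median of -0.12, with -0.10 and 9 of 10 without knockout replicate 1. Irx3 (-0.30 ± 0.09, SE), a transcription factor of the trabecular conduction lineage, and Cited1 (-0.23 ± 0.09) lay below every wild-type heart, 2 of 10 against 6.61% of all clusters. Nppa, the atrial natriuretic peptide gene, lay above every wild-type heart at 0.16 ± 0.09, 1 of 10 against 6.01% of all clusters. A list drawn up for the compact wall was split, with 5 of 10 lower and a median of 0.01. It includes Tnnt2 and the core cardiac factor gene Nkx2-5 (-0.17 ± 0.08), which are also among the cardiomyocyte markers. The list thus does not stand for the compact wall alone.

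The p53 pathway, which acts on Cdkn1a and lies downstream of Arf, had 10 higher and 11 lower means among 21 measured genes, with a median of -0.01. Tigar (-0.30 ± 0.12, SE), a p53 target of sugar metabolism, had the lowest p. It lay below every wild-type heart, 1 of 21 against 6.61% of all clusters. Perp and Rrm2b stood at -0.27 and -0.29. Npm1, which holds Arf in the nucleolus, lay above every wild-type heart at 0.18 ± 0.10, likewise 1 of 21, against 6.01% of all clusters. The classical targets Mdm2 (0.05) and Ccng1 (-0.16) had opposite signs. Polycomb and other regulators of the INK4 genes had 9 of 16 higher means and a median of 0.05. Of these 16, 3 lay above every wild-type heart and 2 below, against 6.01% and 6.61% of all clusters. Ezh1 stood at 0.27 ± 0.13, Cbx8 at -0.15 ± 0.08 and Bmi1, the classical repressor of Cdkn2a, at -0.19 ± 0.12. In limma 0 of the 21 and 0 of the 16 passed.

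Since Cdkn1c lies in an imprinted region, the genes of that region and of the adjoining Igf2 region were read beside it. Of 14 measured genes 9 had lower and 5 higher means, against 53.5% lower over all clusters, with a median of -0.01, equal to that of all clusters. 2 of 14 lay below every wild-type heart, Tssc4 and Cd81, against 6.61% of all clusters, and 0 passed limma's test. Tssc4 was 8.10, 7.87 and 7.80 in the wild-type replicates against 7.24, 7.74 and 7.70 in those of the knockout. Its difference was -0.36 ± 0.15 (SE; limma, adjusted p = 0.797), and -0.20 without knockout replicate 1.

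Phlda2, Slc22a18 and Ascl2, which are imprinted together with Cdkn1c, had small measured differences. All 3 were dim, below the median of all clusters, where RMA compresses differences, and so were Th, Tspan32 and Trpm5. Phlda2 stood at 0.02 ± 0.14 (SE), Slc22a18 at -0.05 ± 0.13 and Ascl2 within 0.01 of 0. Kcnq1, from whose body the controlling RNA of the region starts, was 8.73, 8.65 and 8.37 in the wild-type replicates against 8.79, 8.64 and 8.32 in those of the knockout, nearly the same in both groups. Igf2, a paternally expressed growth factor gene, stood at 0.01 ± 0.08. The others were Cd81 (-0.05), Osbpl5 (-0.10), Nap1l4 (-0.07), Nadsyn1 (-0.07), Dhcr7 (-0.02), Th (0.01), Tspan32 (0.06) and Trpm5 (0.18), whose higher mean came from knockout replicate 2. Imprinted genes elsewhere in the genome had 13 of 19 higher means and a median of 0.03, with Sgce at 0.21 ± 0.10, Rian at 0.24 ± 0.13 and Gatm at -0.17 ± 0.11. 0 of these 19 passed limma's test.

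**Figure D4:**
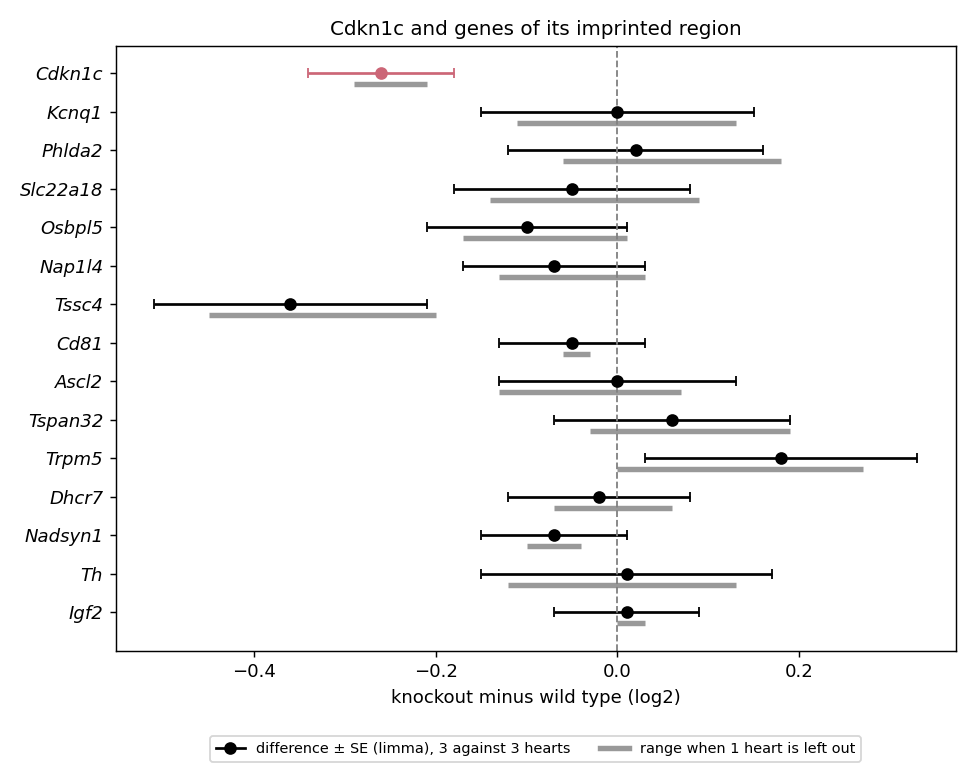
Knockout minus wild-type difference in log2 signal (horizontal axis) for Cdkn1c (red) and 14 genes of its imprinted region and the adjoining Igf2 region, with limma's SE, and in grey the range when 1 heart is left out. Cdkn1c at -0.26 and Tssc4 at -0.36 lie farthest to the left, while Kcnq1, Phlda2, Ascl2, Th and Igf2 lie within 0.02 of 0. Phlda2, Ascl2 and Th were dim, below the median of all clusters.

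The genes whose pattern over the 6 hearts was most like that of Cdkn1c were found by Pearson correlation among 9092 genes at or above the median brightness that varied enough. The 5 most alike were Ing5 (r = 0.989), a chromatin reader gene, Rbm42 (0.989), an RNA-binding protein gene, the small nucleolar RNA gene Snord16a (0.987), Timm50 (0.987), of mitochondrial protein import, and Mrps34 (0.985), of the mitochondrial ribosome. They differed between groups by -0.21, -0.25, -0.20, -0.26 and -0.33, each without overlap. The 3 most opposite were Sec61a2 (-0.993), of the translocation channel, Ubxn7 (-0.988), an adaptor of the p97 segregase, and Mycbp2 (-0.985), a ubiquitin ligase gene, with differences of 0.26, 0.28 and 0.16. These are the extremes of the ranking. As Cdkn1c itself separates the groups, differences of these signs without overlap follow from the choice and are no separate result. Of the 9092 genes 320 had r above 0.9 and 139 below -0.9, over 6 hearts whose arrays all the genes share.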

How the data were processed

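Biotin-labelled RNA of 3 wild-type and 3 knockout hearts was put on arrays after Trizol extraction, per the labels' protocols. Deposited values are log2 signals, as their range shows, which the authors made with RMA, per the submitters' processing notes. Its version, any filter, the probe annotation and the build are not stated in the sources used here. Scanner files were not used here. Of 28767 transcript clusters 21776 carry 1 gene symbol, 1618 several and 5373 none, per a platform annotation, and 21686 were updated by Entrez identifier through a GRCm38.p6 gene table.

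The groups were compared by limma 3.58.1 in R 4.3.3 (lmFit and eBayes, no covariate, no filter), two-sided, with Benjamini-Hochberg adjustment over all clusters and a threshold of 0.05. Single values were also compared by exact permutation tests (scipy 1.17.1). The fit was also run on simulated data, with independent noise of equal spread across arrays. That run does not cover an array that stands apart, as knockout replicate 1 did. The number of arrays limits the precision. Named genes are the inhibitors, up to 4 of each list by lowest p or opposite sign, all kinases, cyclins and genes of the Cdkn1c region, and the genes most like Cdkn1c. Rb1, Mki67, Top2a, Skp2, Rnf123, Rbx1, Ddb1, Bmp10, Nppa, Npm1, Mdm2 and Ccng1 were in part named for their role or after their values were seen. Members and lists were chosen with earlier results of these data known, from textbook knowledge. Of the lists, genes without a cluster of their own, such as Kcnq1ot1, H19, Trp53, Bax and Ccnb1, were not analysed here. RefSeq promoter windows were matched by symbol for 6 of the 7 genes. Same-numbered hearts did not deviate together over all clusters, and the numbers were not used as pairs in the main fit.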

Additional observations from a re-analysis of the deposited data

Results flagged for a closer look

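The only cluster annotated to Cdkn1a is also annotated to 4930567H12Rik, so that its signal can be given to neither gene, and it entered no comparison. It was singled out because all knockout hearts lay above the wild-type hearts. Its signal was 7.44, 7.17 and 7.28 in the wild-type replicates, numbered 1 to 3, against 8.34, 7.58 and 7.69 in those of the knockout. The difference was 0.57 ± 0.20 (log2, SE; limma, adjusted p = 0.797), and 0.34 without knockout replicate 1, which was the highest. A two-sided exact permutation test gave p = 0.1, below which a design of 3 and 3 cannot go. Of all clusters 6.01% had knockout values wholly above the wild-type values.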

How the results depend on the processing

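In 15 alternative fits the difference of Cdkn1c lay between -0.29 and -0.21, and 0 of the inhibitors passed in any of them. Its adjusted p in limma ran from 0.295 (weighted arrays) to 1 (a fold minimum of 1.5). Leaving out dim clusters, 1 cluster per gene, a trended robust variance, the fold minimum and the replicate block cannot move a difference, only its p. In the alternatives that could move it, Cdkn1b, Cdkn2a and Cdkn2b kept their sign, within 0.03 to 0.26, 0.06 to 0.28 and -0.16 to -0.02. Cdkn2c ranged from -0.27 to 0, with no difference left at 2 decimals without knockout replicate 1. Cdkn2d turned to -0.03 with weighted arrays and ranged from -0.07 to 0.09 with 1 heart left out. The number of inhibitors without overlap was 1 to 2 with 1 heart left out, where fewer samples make separation easier. Cdkn1b joined Cdkn1c without wild-type replicate 1 or knockout replicate 3, Cdkn2a without wild-type replicate 3 and Cdkn2b without knockout replicate 1. Over all clusters, 0 to 1 passed with 1 heart left out, the 1 without knockout replicate 1. With a replicate block, Cdkn1c stood at -0.26 (adjusted p = 0.913), and 0 clusters passed. The deviations of same-numbered hearts correlated at -0.04, -0.03 and -0.06 over all clusters, so no pairing was seen there. A correlation over all clusters cannot settle whether some genes follow a shared pair. The cause of the changes with single hearts was not tested. With 3 arrays per group, the median SE of a difference was 0.11, which limits what could be detected.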

Other observations

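A second, dimmer cluster of Cdkn1b, which the rule set aside, gave 6.99, 7.06 and 6.42 in the wild-type replicates, numbered 1 to 3, against 7.62, 6.49 and 6.98 in those of the knockout. Its difference of 0.20 ± 0.29 (log2, SE) had the sign of the brighter cluster and turned to -0.09 without knockout replicate 1. The hearts of both groups spread more widely in it than in the brighter cluster, with SDs of 0.35 and 0.56 against 0.08 and 0.23 (n = 3 each).

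Among the neural crest and neuron markers, Dbh, the enzyme gene of noradrenaline synthesis, lay below every wild-type heart, at 5.62, 5.64 and 5.39 in the wild-type replicates against 5.06, 5.21 and 4.99 in those of the knockout. Its difference was -0.47 ± 0.11 (log2, SE; limma, adjusted p = 0.797), and it lay between -0.55 and -0.42 whichever heart was left out. Its signal was dim, and the list it belongs to had 5 of 6 higher means. Dbh was the 1 of 6 below every wild-type heart, against 6.61% of all clusters. It was not the marker with the lowest unadjusted p in limma, at 0.00257. The macrophage markers Cybb (0.000327) and Mpeg1 (0.000406) and the liver markers Ahsg (0.00125) and Alb (0.00192) had lower ones.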
